A study of Mus musculus with 2 samples.

Results

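The vomeronasal type 1 receptor (V1R) genes of the mouse were examined for FLAG-HLF binding in blood progenitors. Members were all protein-coding genes of the RefSeq GRCm38.p6 table whose symbol is Vmn1r followed by a number. The table holds 231 such symbols, of which 1 is a pseudogene and 2 protein-coding genes carry scaffold coordinates. The remaining 228 genes were taken as members, out of 21523 protein-coding genes on the 19 autosomes and X. Nearness was scored from the middle of each peak, which had to fall in a gene or no more than 20 kb outside it. The rule reads symbols alone, although the family was picked with earlier results of these data known.

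The series has 1 library from C57BL/6 Lin-Sca-1+c-Kit+ cells (stem and progenitor-enriched blood cells, labelled KSL) carrying the retroviral transgene MigR1 3xFLAG-HLF/HLF, and 1 from such cells given the MigR1 empty vector. Both were recovered with an anti-FLAG antibody, from animals of 8 to 10 weeks with the tissue given as blood, after 5 days with SCF, IL-7, Flt3L and IL-3. HLF, hepatic leukemia factor, is a PAR bZIP transcription factor, here expressed from a retroviral promoter and not from its own gene. The peak list of the FLAG-HLF library was used, with 3153 intervals of 400 bp on mm10 and no score or read count, so its depth is unknown. The empty-vector library was not analysed here, and no background from control cells can be set beside any value. With 1 library there is no replicate, and no p-value is given. Intervals cover counting error over genes or peaks only, and they are too narrow where neighbouring genes share a peak or the lack of one. Expression was not measured, so neither the labelled cell type nor silence of the V1R genes could be checked.

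V1R proteins are G protein-coupled receptors of sensory neurons in the vomeronasal organ, where they detect pheromones and other chemical cues. Each receptor is encoded by a single coding exon, and a vomeronasal neuron usually expresses very few of the family's genes. The genes arose by tandem duplication and lie in clusters with many pseudogenes.

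No V1R gene lay near a FLAG-HLF peak. The count was 0 of 228 members, which allows a share of up to 1.32% (3 counts; exact Clopper-Pearson 95% interval 0 to 1.60%). Among all protein-coding genes 3294 of 21523, or 15.3%, were near a peak. The count was 0 on each chromosome that carries the family, with 124 members on chromosome 7, 51 on 6, 35 on 13, 14 on 17, 2 on 4 and 1 each on 1 and 18. It was also 0 for the gene body alone and within 5 kb, which the 0 within 20 kb makes certain. All protein-coding genes gave 6.94% and 9.58% there, but other genes of like length give only 0.587 and 2.78 members. Under assignment of every peak to the closest gene boundary, up to 100 kb away, 11.0% of protein-coding genes received one and 0 members did. Genes of like length give 4.29 members under this rule. The 138 V1R pseudogenes did not change the count, with 0 of 367 genes and pseudogenes together near a peak.

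V1R genes are short, and short genes were less often near a peak than long ones. The median member spans 924 bases, against 17374 for all protein-coding genes. The lengths of 199 members are multiples of 3, so most of these gene models hold the coding sequence alone and their lengths are coding lengths. Of the 228, 166 fall in the lowest of 20 length bins, where 22 of 862 other genes (2.55%) were near a peak. A further 38 fall in the next bin, where 44 of 990 others (4.44%) were. In the bin after that, of 1731 to 3128 bases, 115 of 1017 others (11.3%) were. The 20 kb on each side makes up most of the region in each of these bins, so target size differs little between them. What else differs between the genes of these bins was not tested. Summed over members, other genes of like length give an expected 8.92 members near a peak, against 0 observed. Many other genes in the lowest bins are themselves receptors for odours or tastes. Without the chemosensory receptor families in the comparison the expected number was 15.4.

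Wider windows brought in the first members. Within 50 kb there were 3 of 228 (1.32%, 0.272 to 3.80%), against 22.2 expected from length and 24.6% of all protein-coding genes. Within 100 kb there were 10 (4.39%, 2.12 to 7.92%), against 35.3 expected and 36.9% of all. The 3 genes within 50 kb were Vmn1r4 at 21.9 kb, Vmn1r21 at 36.6 kb and Vmn1r85 at 45.5 kb. Vmn1r4 lies just outside the 20 kb limit and is the member closest to a peak by gene boundary. Its gene model spans 33695 bases, and its annotated start in the promoter table lies 54.5 kb from that peak. The other 7 within 100 kb were Vmn1r5, Vmn1r32, Vmn1r22, Vmn1r39, Vmn1r1, Vmn1r86 and Vmn1r87, all but Vmn1r1 at or near an end of a cluster or beside a gene embedded in one.

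**Figure D1:**
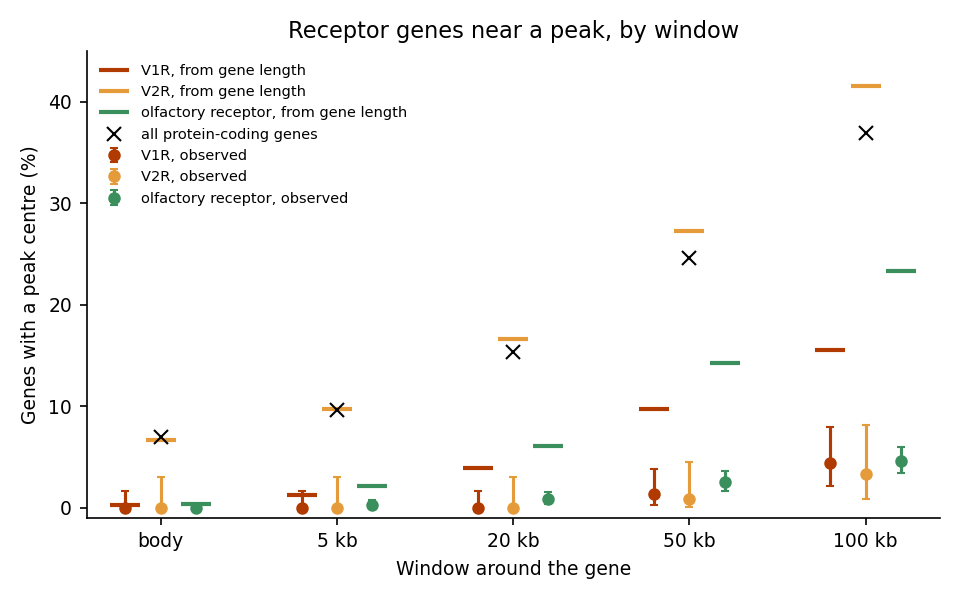
Share of genes with a peak centre (%) by window around the gene, for V1R (n = 228), V2R (n = 122) and olfactory receptor (n = 1105) genes. Points with bars are observed shares with exact 95% intervals, dashes the shares given by other genes of like length, and crosses all protein-coding genes; V1R points stay at 0 up to 20 kb and reach 4.39% at 100 kb.

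The 2 other large chemosensory families had low counts too. V2R genes, a second class of vomeronasal receptor with longer gene models, had 0 of 122 members near a peak (0 to 2.98%), where length gives 20.2. Olfactory receptor genes had 9 of 1105 (0.814%, 0.373 to 1.54%), where length gives 67.4. The 9 include Olfr70, Olfr71, Olfr432 and Olfr433. The V1R interval overlaps those of both families, and their differences were not tested.

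Distances showed the same for the whole family. The nearest peak lay 21.9 to 2763 kb from a member, with a median of 796 kb. The median over all protein-coding genes was 179 kb. It was 1053 kb for V2R and 845 kb for olfactory receptor genes. A peak was over 1 Mb away for 87 members (38.2%), against 15.1% of all protein-coding genes. Vmn1r66, the first member of a chromosome 7 cluster, was the most distant at 2763 kb. Members differed by chromosome: the median was 211 kb on chromosome 6, 792 kb on 13, 835 kb on 17 and 1215 kb on 7. The chromosome 6 median is close to the 179 kb of all protein-coding genes.

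**Figure D2:**
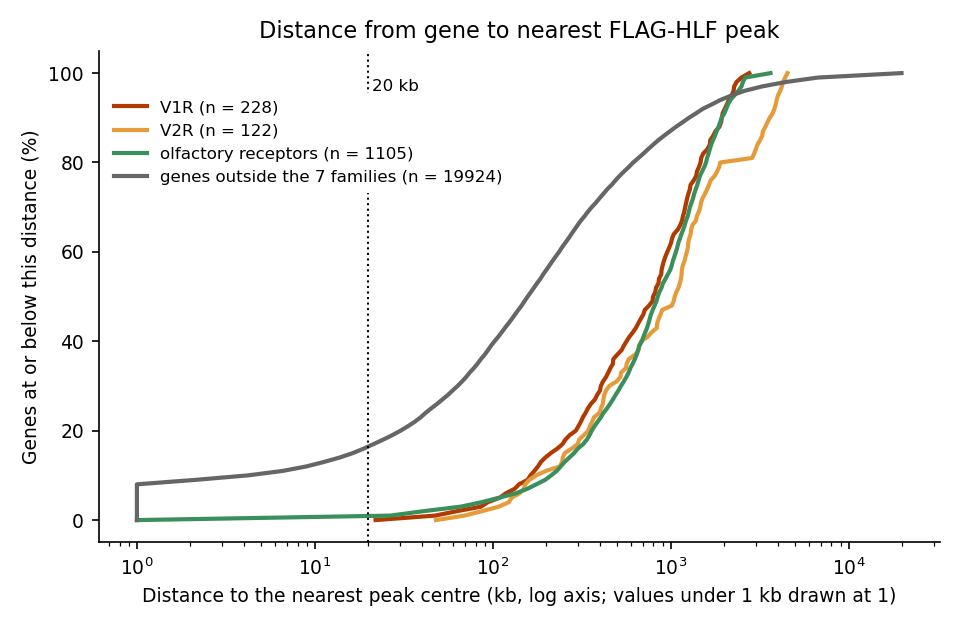
Cumulative share of genes (%) by distance to the nearest peak centre (kb, log axis), for V1R, V2R and olfactory receptor genes and for genes outside the 7 gene families examined. The V1R curve starts at 21.9 kb, right of the dotted 20 kb line, and reaches 50% at 796 kb.

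Members are neighbours, so their windows were merged to count each base and peak once. The 228 windows of 20 kb merged into 97 intervals of 7.48 Mb in all, with 0 peaks (exact Poisson 95% interval 0 to 0.493 per Mb). The merged windows of the other autosomal protein-coding genes held 1.89 peaks per Mb (1.81 to 1.96), a rate at which 7.48 Mb would hold 14.1 peaks. That rate is not adjusted for gene length, and the autosomes as a whole held 1.30 per Mb. The corresponding values were 0 peaks in 7.57 Mb for V2R and 6 peaks in 26.8 Mb for olfactory receptor genes.

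With under 1 Mb between neighbours taken as the limit of a cluster, 225 members formed 10 clusters and 3 stood alone. Letters number the groups along a chromosome. The 13 spans total 12.5 Mb and hold 109 V1R pseudogenes, 69 other protein-coding genes and 2 peaks, or 0.159 peaks per Mb (0.0193 to 0.576). The megabase to each side of the spans held 37 peaks in 25.3 Mb, or 1.46 per Mb (1.03 to 2.01), and the autosomes 1.30 (1.26 to 1.35). The interval of the spans does not overlap that of the pooled flanks, but the flanks differed by cluster. Groups 7a, 7b and 7c and the gene on chromosome 18 had 0 peaks in the megabase to either side. The clusters on 4, 13 and 17 (before) and 7e (after) had 0 on 1 side. The flanks before the groups on 4 and 18 lie mostly below 3 Mb, where no gene was used, and are part of the 25.3 Mb.

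The largest cluster, 7d, runs from Vmn1r91 to Vmn1r183 (chromosome 7, 20101158 to 24055691) with 86 members, 13 V1R pseudogenes and 0 peaks over 3.95 Mb. Its borders were marked by peaks at Ceacam19, a member of the carcinoembryonic antigen family, 225 kb before Vmn1r91, and near Plaur, which encodes the urokinase receptor, 404 kb after Vmn1r183. The member farthest from a peak, Vmn1r142, lay 2287 kb away. Cluster 7b, from Vmn1r66 to Vmn1r89 (chromosome 7, 10273828 to 13220289), has 24 members and 29 other protein-coding genes. Its single peak, at chromosome 7, 13038623 to 13039022, lay 0.547 kb from Ube2m, the gene of a NEDD8-conjugating enzyme, and within 20 kb of Trim28, Chmp2a, Mzf1 and Gm31649. Trim28 encodes the co-repressor recruited by KRAB zinc finger proteins. Vmn1r85 was the closest member to this peak at 45.5 kb.

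Cluster 7a (Vmn1r55 to Vmn1r65, 11 members; chromosome 7, 5146490 to 6011010) had no peak closer than 1205 kb. Clusters 7a and 7b, apart from the end of 7b beyond its peak, lie in 1 interval without a peak that reaches from a peak 25.7 kb from Lilra6 to the Ube2m peak. It is 9.10 Mb long, the 16th longest of 3109 intervals between neighbouring autosomal peaks, whose median is 266 kb. The 20 longest intervals hold 3.23% of autosomal protein-coding genes and 13.2% of V1R genes, all 30 of them in this one. It contains 162 protein-coding genes, of which 30 are V1R, 29 V2R, 8 olfactory receptor and 31 zinc finger genes (Zfp, Zscan and Zik symbols). At 17.8 protein-coding genes per Mb it is the most gene-dense of the 20 longest. Cluster 7e holds 2 members, Vmn1r184 and Vmn1r185, at 548 and 892 kb from a peak, and Vmn1r90, alone between 7b and 7d, was 1491 kb away.

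By median distance, 246, 128 and 295 kb for 6a, 6b and 6c, the chromosome 6 clusters lay closest to peaks among the 10 clusters. Cluster 6a (Vmn1r4 to Vmn1r31, 28 members; chromosome 6, 56923914 to 58472878) had 1 peak in its span, at chromosome 6, 57806756 to 57807155, inside Vopp1. Vmn1r21 was its nearest member at 36.6 kb. A second peak lay before the span, inside Nt5c3, which encodes a pyrimidine nucleotidase and overlaps Vmn1r4 in the table. Cluster 6b (Vmn1r32 to Vmn1r39, 8 members) sits in a gap of 0.396 Mb between peaks, with Vmn1r32 at 52.7 kb from a peak and a peak after it 1.20 kb from Gng12, the gene of a G protein gamma subunit. Cluster 6c (Vmn1r40 to Vmn1r54, 15 members) lies between a peak inside Chchd6 and one inside Zxdc, with Vmn1r54 nearest at 108 kb.

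On chromosome 13 the cluster from Vmn1r188 to Vmn1r223 (22087878 to 23250323) packs 35 members and 36 V1R pseudogenes into 1.16 Mb with 0 peaks. The bordering peaks lay inside Elmo1, a regulator of Rac signalling, and 5.29 kb from Abt1, with Vmn1r223 nearest at 163 kb. The megabase before this cluster held 0 peaks and the one after it 5. On chromosome 17, 14 members (Vmn1r224 to Vmn1r237; 20419163 to 21314886) lay between peaks near Fpr2, which encodes a formyl peptide receptor, and Zfp760, with Vmn1r237 nearest at 389 kb. Vmn1r2 and Vmn1r3 on chromosome 4 lie before that chromosome's first peak, at 476 and 464 kb from it.

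**Figure D3:**
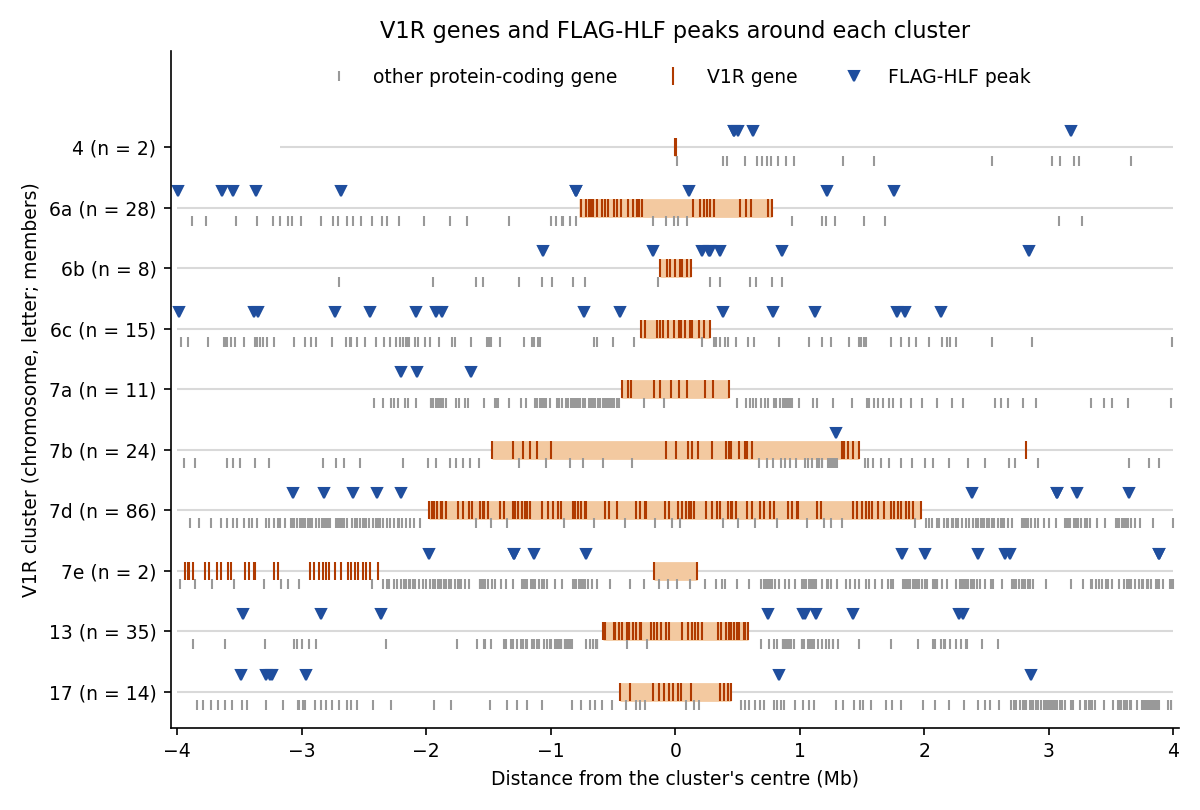
V1R genes (orange ticks), other protein-coding genes (grey ticks) and FLAG-HLF peaks (blue triangles) by distance from the centre of each of the 10 clusters (Mb), with the span shaded. Only 6a and 7b have a peak inside the shaded span, 1 each; members of a neighbouring group appear unshaded in the rows of 7b and 7e.

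Other protein-coding genes are few around the members. Within 200 kb of a member there was a median of 2 protein-coding genes outside the chemosensory receptor families, and 40 members had none. For genes outside those families the median was 7. Genes outside the receptor families with no such neighbour were near a peak in 42 of 488 cases (8.61%), and those with 2 in 186 of 1401 (13.3%). The members with none (40) and with 2 (70) had 0 near a peak. No interval was taken for these smaller groups, and the genes compared were not matched on length. Standardised over all other protein-coding genes, receptors included, on this number of neighbours in place of length, 24.9 members would be near a peak. Of the 69 other protein-coding genes inside the V1R spans, 7 (10.1%) were near a peak. They were Nt5c3 and Vopp1 in 6a and the group of 5 around Ube2m in 7b.

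Sequence at the gene starts was compared next, since a bZIP factor of this kind binds a short palindrome. RefSeq promoter windows of GRCm38.p6, from 250 bases before to 50 after an annotated start, matched 205 of the 228 members, 1 window each. In 180 of the 205 the annotated start is an ATG, so these windows flank the start codon, and the transcription start was not given for most members. The median GC content was 36%, with a range of 24.3 to 51.3%, against 56.7% for the 21045 windows of all protein-coding genes. V2R and olfactory receptor windows were alike in this, with medians of 38% and 35%. A peak centre lay within 1 kb of the annotated start for 0 of 205 V1R windows and for 333 of all windows (1.58%). It did so for 15 of 2448 other windows of 27.7 to 42.9% GC (0.613%), a range that covers most but not all members. The exact interval for 0 of 205, 0 to 1.78%, includes both shares. V2R and olfactory receptor windows also had none, with 0 of 117 and 0 of 944.

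Searched on both strands, the PAR bZIP palindrome TTACGTAA occurred in 0 of 205 V1R windows, which allows a share of up to 1.46%, and in 29 of all windows (0.138%). The palindrome also occurred in 0 of 117 V2R and 0 of 944 olfactory receptor windows. Its variant TTATGTAA, read as TTACATAA on the other strand, occurred in 3 V1R windows (1.46%, 0.303 to 4.22%) and in 190 of all windows (0.903%). The C/EBP palindrome TTGCGCAA occurred in 0 V1R windows and 47 of all (0.223%). The E-box CAGCTG, a motif of another factor class, occurred in 5 V1R windows (2.44%, 0.797 to 5.60%), namely those of Vmn1r5, Vmn1r32, Vmn1r42, Vmn1r43 and Vmn1r235, and in 15.7% of all windows. No motif contains another, and each was counted on its own, so 1 stretch could count for several. Among the 2448 other windows of 27.7 to 42.9% GC, TTATGTAA occurred in 3.43%, a share that would give 7.03 V1R windows. The interval of the members' share includes 3.43% and the share of all windows. This GC range is narrower than the members' own, and the V1R counts include windows outside it. Among those with a motif these are Vmn1r77 (TTATGTAA) and Vmn1r32, Vmn1r42 and Vmn1r43 (CAGCTG). TTACGTAA would give 0.251 and TTGCGCAA 0.167 V1R windows. CAGCTG occurred in 9.48% of the 2448 windows, a share that would give 19.4 V1R windows and lies above the members' interval. Many V1R windows are copies of each other, as described below, and each copy was counted. The intervals of the V1R shares are therefore too narrow, and the difference for CAGCTG was not tested.

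The 3 V1R windows with TTATGTAA are shown with 2 windows from genes that hold the same letters and have a peak at the start. Bases run 5′ to 3′ along the gene's strand and end at the last base before the annotated start, and capitals mark the motif. Vmn1r77 (chr7:12041049-12041298, plus strand), Vmn1r171 (chr7:23631738-23631987, plus strand) and Vmn1r193 (chr13:22219821-22220070, minus strand) are members in clusters 7b, 7d and 13. Clec12a (chr6:129349994-129350243, plus strand) encodes an inhibitory C-type lectin of myeloid cells, and Irf2bp1 (chr7:19003808-19004057, plus strand) a partner of the repressor IRF2.
Vmn1r77: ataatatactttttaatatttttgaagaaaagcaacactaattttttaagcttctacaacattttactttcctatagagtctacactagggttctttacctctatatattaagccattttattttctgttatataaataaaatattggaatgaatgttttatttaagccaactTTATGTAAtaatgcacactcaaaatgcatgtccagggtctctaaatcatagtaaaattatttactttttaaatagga
Vmn1r171: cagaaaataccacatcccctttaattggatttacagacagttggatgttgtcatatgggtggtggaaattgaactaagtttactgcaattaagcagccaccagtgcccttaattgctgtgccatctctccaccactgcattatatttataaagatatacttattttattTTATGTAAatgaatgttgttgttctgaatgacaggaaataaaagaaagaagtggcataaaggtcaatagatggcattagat
Vmn1r193: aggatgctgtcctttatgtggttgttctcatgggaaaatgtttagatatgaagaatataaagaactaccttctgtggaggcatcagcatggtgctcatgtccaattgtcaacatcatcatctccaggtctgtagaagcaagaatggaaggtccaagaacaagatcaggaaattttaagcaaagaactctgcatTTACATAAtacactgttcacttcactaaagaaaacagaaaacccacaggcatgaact
Clec12a: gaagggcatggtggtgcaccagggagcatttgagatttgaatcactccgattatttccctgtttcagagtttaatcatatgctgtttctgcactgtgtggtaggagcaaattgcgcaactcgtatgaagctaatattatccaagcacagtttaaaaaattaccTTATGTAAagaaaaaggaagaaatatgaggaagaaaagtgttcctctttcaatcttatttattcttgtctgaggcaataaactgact
Irf2bp1: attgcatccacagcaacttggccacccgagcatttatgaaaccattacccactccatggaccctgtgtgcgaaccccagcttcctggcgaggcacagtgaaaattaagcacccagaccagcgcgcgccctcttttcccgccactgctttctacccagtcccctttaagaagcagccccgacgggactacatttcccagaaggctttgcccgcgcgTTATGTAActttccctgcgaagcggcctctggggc

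In Vmn1r77, Vmn1r171 and Vmn1r193 the motif begins 77, 81 and 57 bases before the annotated start, and in Vmn1r193 it reads TTACATAA along the gene's strand. Their nearest peak centres lay 998, 828 and 1193 kb from that start. In Clec12a and Irf2bp1 it begins 87 and 35 bases before the start, and a peak centre lay 136 and 16 bp from the start. The Clec12a window has 37.7% GC, within the range of the members, and also holds the palindrome TTGCGCAA, printed in lower case. Among all windows with TTATGTAA, 11 of 190 (5.79%) had a peak within 1 kb of the start, against 1.58% of all windows. The 21045 windows cover 17274 genes, so a gene with several annotated starts can count more than once. The difference was not tested.

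Members also share sequence with each other, which bears on where short reads can be placed. Of the 205 windows, 54 were identical over all 300 bases to that of another member, in 21 sets, and 20 of the sets lie in cluster 7d. In 13 of the sets the first and last copy lie between 1.9 and 2.1 Mb apart. Cut into words of 36 bases, 122 windows (59.5%) shared at least 1 word with another gene's window, against 16.5% of all protein-coding windows and 21.8% of olfactory receptor windows. The share was higher for V2R, at 92 of 117 windows (78.6%). Windows with over 90% of their words shared made up 28.3% of V1R and 13.7% of V2R windows. In cluster 7d the median window had 100% of its words elsewhere, and 56 of 83 windows had over 90%. Clusters 7b (21 windows) and 17 (12 windows) shared no word with any other gene's window.

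2 of the identical windows show the difference in spacing. The first belongs to 6 members of cluster 7d spread over 2.55 Mb (Vmn1r111, Vmn1r118, Vmn1r131, Vmn1r138, Vmn1r257 and Vmn1r166) and is printed from Vmn1r111 (chr7:20703214-20703466, minus strand). The second belongs to the neighbours Vmn1r47 and Vmn1r48 of cluster 6c and is printed from Vmn1r47 (chr6:90021638-90021890, plus strand). The window of Vmn1r4 (chr6:56956263-56956512, plus strand), the member nearest to a peak by gene boundary, shared no word and is shown for comparison. Capitals mark the start codon in the first 2, and the Vmn1r4 stretch ends before its annotated start and holds no capitals.
Vmn1r111: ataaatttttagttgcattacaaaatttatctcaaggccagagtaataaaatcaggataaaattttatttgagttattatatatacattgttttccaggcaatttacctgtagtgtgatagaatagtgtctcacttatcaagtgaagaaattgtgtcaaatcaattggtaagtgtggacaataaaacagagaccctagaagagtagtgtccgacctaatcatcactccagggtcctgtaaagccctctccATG
Vmn1r47: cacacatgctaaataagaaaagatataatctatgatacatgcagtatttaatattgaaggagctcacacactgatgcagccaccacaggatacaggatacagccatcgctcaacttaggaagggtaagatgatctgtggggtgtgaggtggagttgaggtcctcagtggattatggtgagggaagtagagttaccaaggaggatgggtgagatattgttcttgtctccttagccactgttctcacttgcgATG
Vmn1r4: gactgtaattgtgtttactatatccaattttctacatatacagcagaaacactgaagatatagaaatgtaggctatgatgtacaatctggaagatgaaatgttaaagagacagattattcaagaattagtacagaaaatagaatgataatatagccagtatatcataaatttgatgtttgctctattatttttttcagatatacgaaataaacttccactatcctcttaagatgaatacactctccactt

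The absence of peaks was not limited to members with repeated windows. The 83 members whose window shared no word had 0 near a peak, where length gives 3.95. Without cluster 7d the count was 0 of 142, where length gives 6.31. The merged windows then held 0 peaks in 4.78 Mb, where the rate of other genes, not adjusted for length, gives 9.02. The 0 in each of these subsets follows from the 0 of the whole family, so only the expected numbers add to it. The word count covers 300 bases a gene and not the whole 20 kb window. Whether reads could be placed across the clusters was not tested, and no genome sequence was used.

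**Figure D4:**
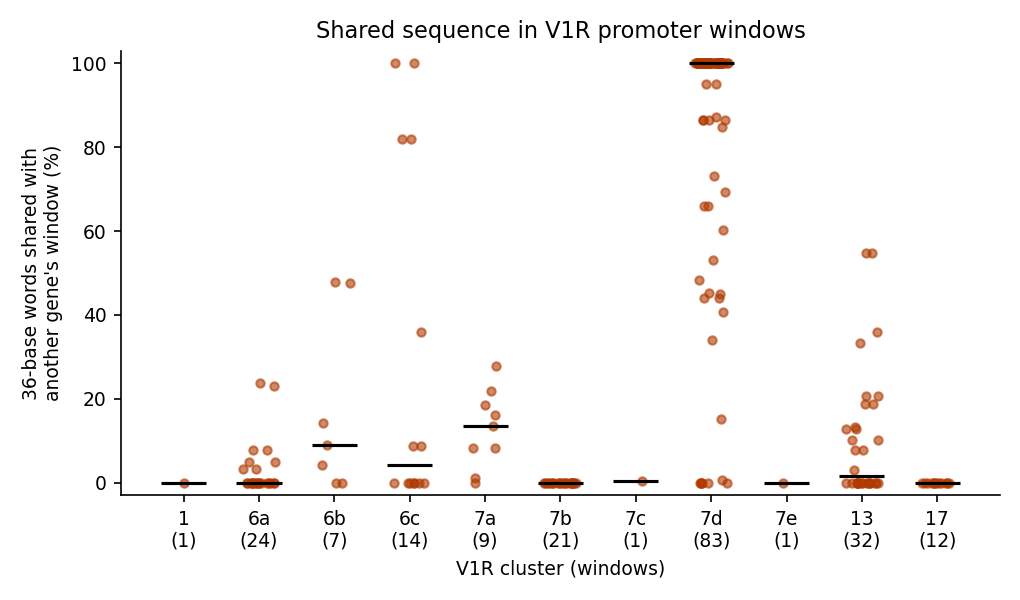
Share of 36-base words in each V1R promoter window that also occur in another gene's window (%), by cluster, with the number of windows in brackets, 1 point per member and the median as a line. Cluster 7d stands at a median of 100%, while every window of 7b and 17 is at 0.

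The last comparison asked how far V1R genes account for the few peaks per gene on chromosome 7. The chromosome carries 2025 protein-coding genes and 156 peaks, or 7.70 peaks per 100 genes. This is 0.480 times the rate of the other autosomes (exact 95% interval 0.406 to 0.565). V1R genes make up 124 of the 2025 (6.12%), with 0 near a peak. With V1R genes left out on every autosome the ratio was 0.509 (0.430 to 0.598), which removes 7.85% of the deficit on a log scale. Chromosome 7 remained the lowest autosome. Only genes were left out here and in the ratios that follow, and all 156 peaks stayed in the count, so leaving out families with many genes on chromosome 7 raises its ratio by construction. At the rate of the other autosomes its 156 peaks leave 1052 genes unaccounted for, and the 124 V1R genes are 11.8% of these.

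Other families on chromosome 7 contributed in the same direction. Olfactory receptors, 237 genes with 0 near a peak, gave 0.519 when left out alone, and the 52 V2R genes gave 0.491. Without all 3 families the ratio was 0.570 (0.482 to 0.670), and 23.3% of the log deficit was removed. Chosen after the values were seen, 7 further families with many genes on this chromosome were then left out too: kallikreins, Mas-related receptors, secretoglobins, CYP2 enzymes, CEACAM and PSG genes, NLRP genes and zinc finger genes. All 26 kallikrein genes lie here, with 0 near a peak, and the 102 zinc finger genes had 7. The ratio became 0.656 (0.555 to 0.771), a description of gene number, since 10 of the chromosome 7 genes left out in this last step were near a peak. The V1R share of the deficit leaves most of it in place.

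Counting genes near a peak in place of peaks gave a smaller difference. On chromosome 7, 218 of 2025 genes (10.8%) were near a peak, against 16.5% on the other autosomes, a ratio of 0.653. It was 0.692 without V1R genes, 0.777 without the 3 receptor families and 0.864 without all 10, where 208 of 1373 genes (15.1%, 13.3 to 17.2%) on chromosome 7 compare with 17.5% elsewhere. Per Mb of span chromosome 7 stood at 0.833 (0.704 to 0.979), and at 0.876 (0.741 to 1.03) with the V1R spans and their peaks removed on all autosomes, an interval that includes 1.

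**Figure D5:**
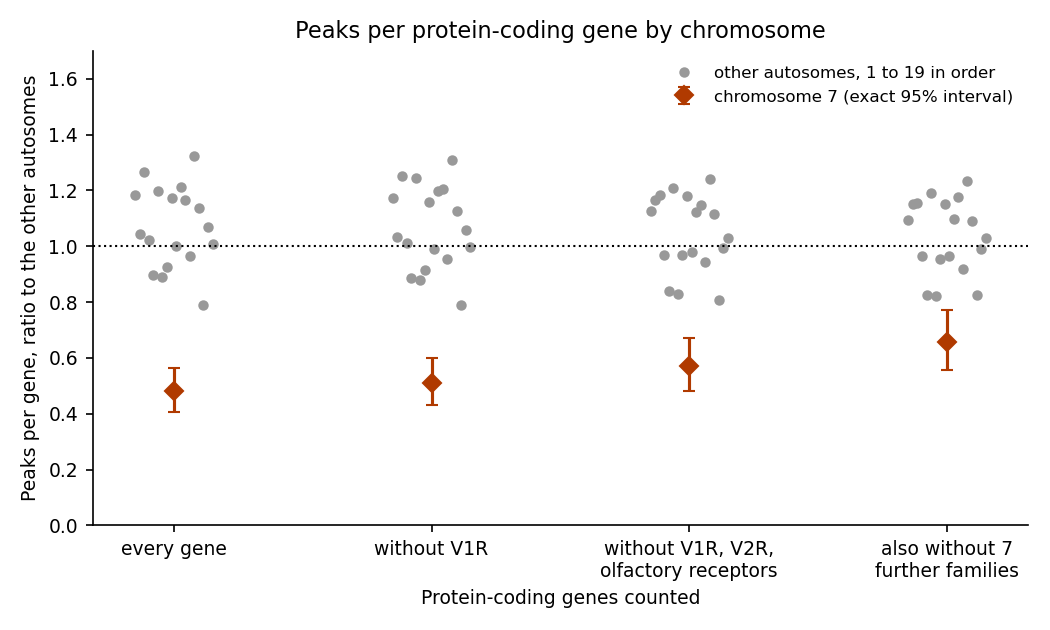
Peaks per protein-coding gene on each autosome as a ratio to the other autosomes, counting every gene or leaving out gene families on all autosomes; the bar is the exact 95% interval of chromosome 7. Chromosome 7 (diamond) moves from 0.480 to 0.509 without V1R genes and to 0.656 without all 10 families, and is the lowest point in each column.

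Genes of vomeronasal signalling and regulators of vomeronasal and olfactory neurons were read from 2 lists, which are not limited to genes that act with V1R receptors. Of 20 genes of vomeronasal signalling and sensory neuron identity, 4 (20%, 5.73 to 43.7%) were near a peak, where other genes of like length give 4.25. They were Ano2, encoding a calcium-activated chloride channel, with a peak inside the gene, Gnb1, a G protein beta subunit, at 2.94 kb, Gng8, a G protein gamma subunit, at 13.2 kb, and Ano1, another such channel, at 17.1 kb. The Gnb1 peak was also counted for 1 other gene and the Gng8 peak for 2. Trpc2, the transduction channel of vomeronasal neurons, was 221 kb from a peak, Gnai2, the G protein alpha subunit that V1R neurons use, 350 kb, and Omp, the marker of mature olfactory neurons, 302 kb. Several of these genes, such as Gnb1 and Gnai2, are expressed in most tissues. Of 22 regulators of vomeronasal and olfactory neurons, 2 (9.09%, 1.12 to 29.2%) were near a peak, where length gives 4.11. These were the proneural gene Neurod1, with a peak 1.71 kb inside the gene, and the receptor gene Notch1, with a peak inside as well. Both lists have wide intervals that include the 15.3% of all protein-coding genes.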

How the data were processed

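The deposited file lists peak positions (chromosome, start and end on mm10) of the FLAG-HLF library, with no header or score. Per the submitters' processing notes, Bowtie2 2.0.6 and MACS2 2.0.10 were among the tools, without a stated role. How peaks were thresholded or set against the control library is not given in the sources used here. The centre was taken as start + 200. Gene positions came from a RefSeq table of GRCm38.p6, which shares mm10 coordinates; rows on Y, the mitochondrial genome or with a start below 3 Mb (scaffold coordinates) were left out. Expected counts sum, over members, the share near a peak among other genes in the same bin of length (20 bins on autosomes, 5 on X). The functions were tested on simulated peaks. All 42 list symbols matched. Protein sequences were not used here, so protein pairs were not compared.

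Named genes are those nearest to or farthest from a peak, first and last in each cluster, with a searched motif in the window, or at a bordering peak; others were named after their values were seen. Members, lists and tests were chosen with earlier results of these data known. Python 3.11.15, pandas 2.3.3, scipy 1.17.1 and matplotlib 3.10.9 were used.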

Additional observations from a re-analysis of the deposited data

How the results depend on the processing

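The count of V1R genes near a peak was 0 under 10 of 12 alternatives. Given 0 within 20 kb, the gene body, 5 kb and leaving out chromosome 6, 7, 13 or cluster 7d could only give 0. The others were the nearest boundary, any overlap with the peak, and pseudogenes or V1R synonyms added. The count rose to 3 within 50 kb and 10 within 100 kb, windows that are larger by construction. The number expected from length, 8.92, became 0.587 for the gene body, 2.78 at 5 kb, 22.2 at 50 kb and 35.3 at 100 kb, 15.4 without chemosensory genes, 24.9 by neighbouring genes and 3.95 for the 83 members with no shared word (fewer members). Merged windows held 0.594 peaks per Mb at 100 kb, and the flanking megabases 1.46. The ratio of chromosome 7 stayed below 1 throughout: 0.570 without 3 receptor families, 0.656 without 10, 0.653 by genes near a peak, 0.833 by span and 0.876 by span without V1R clusters. The comparisons by neighbours, shared words, cluster 7d, flanks, synonyms and the 7 further families were chosen after seeing the data. No score is given, so no stricter threshold could be tried, and unknown depth limits every count of 0. No paired analysis was possible because 1 library was used, and no replicate could be left out.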

Other observations

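Among 4 smaller gene families read the same way, 35 bitter taste receptor genes had 2 near a peak (Tas2r126 and Tas2r135; 5.71%, 0.700 to 19.2%), where length gives 1.03. The 42 beta-defensin genes had 3 (Defb43, Defb47 and Defb48), where length gives 4.70. The 15 trace amine receptor genes and the 52 keratin-associated protein genes had 0, where length gives 0.719 and 1.67.

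Ranked by the number of protein-coding genes they hold, a ranking chosen after the values were seen, 9 of the 10 fullest intervals between neighbouring autosomal peaks contain V1R, V2R or olfactory receptor genes. Of the 20 fullest, 11 do. The ranking counts the receptor genes themselves, so dense receptor arrays rank high by their own number. The fullest, on chromosome 2, has 226 protein-coding genes in 5.35 Mb, of which 222 are olfactory receptors. The 3 that contain V1R genes hold 151 members, or 66.2% of the family. The exception among the 10 is an interval of 4.06 Mb on chromosome 3 with 87 protein-coding genes and none of these receptors.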
